A study of Mus musculus with 2 samples.

Results

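The collagen-rich Spp1 cells are 214 cell barcodes of the chemoresistant library that combined transcripts of fibrillar collagen with transcripts of Spp1, the secreted glycoprotein osteopontin. They were chosen by unique molecular identifiers (UMIs), the tags that count single RNA molecules. A member had at least 20 UMIs over Col1a1, Col1a2 and Col3a1 together, at least 5 UMIs of Spp1, at most 1 UMI of the leukocyte gene Ptprc and at most 3 UMIs over the macrophage genes C1qa, C1qb and C1qc. They made up 214 of 14908 kept barcodes of that library (1.44%, exact 95% binomial interval 1.25 to 1.64%) and of 27732 in the whole series. The same limits found 4 of 12824 barcodes (0.0312%, 0.00850 to 0.0798%) in the primary library.

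The study profiled solid tumours of the ID8 model, a mouse ovarian surface epithelial line that grows as ovarian cancer in immunocompetent mice, by single-cell RNA sequencing. The first library came from treatment naive (primary) tumours, the second from tumours labelled chemoresistant after cisplatin, a platinum compound that binds and crosslinks DNA. Cells of several tumours were pooled before loading in each group, and the number of tumours, the strain and age of the mice and the dose are not given in the sources used here. Each group is thus 1 library of host and tumour cells together, whose animals cannot be told apart, and no value has a replicate check or a test.

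Fibrillar collagens are made by fibroblasts and related stromal cells, where prolyl and lysyl hydroxylases, the chaperone Serpinh1 and lysyl oxidases fold and crosslink them. Osteopontin binds integrins and the hyaluronan receptor Cd44, and is made by bone-forming cells, macrophages and many tumour cells. Ndufa4l2 (a subunit-like protein of the respiratory chain) and Ero1a (which renews disulfide bonding in the endoplasmic reticulum) are both known targets of the hypoxia-inducible factors, and Inhba encodes the chain of activin A, a ligand of the TGF-beta family.

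3 groups served for comparison. The chemoresistant tumour cells were the 3330 barcodes of the same library with at least 5 UMIs over Krt8, Krt18 and Krt19, at most 1 of Ptprc and under 20 collagen UMIs. The primary fibroblast-like cells were the 158 barcodes of the primary library that met the collagen, Ptprc and C1q limits with under 5 keratin UMIs, and they carried both fibroblast genes (Dcn 6808 CPM, counts per 1000000 UMIs, Clec3b 378) and the pericyte gene Rgs5 (413). The Spp1-low cells were the 108 chemoresistant barcodes that met every limit but had under 5 Spp1 UMIs. Counts were summed over the cells of a group and scaled to CPM. Ratios are log2 of (CPM + 5) in each group, which understates the change of low genes, for genes with at least 10 CPM in either group, and intervals are exact 95% Poisson limits that cover counting error only.

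The median depth was 17342 UMIs and 4217.5 genes in the collagen-rich Spp1 cells, 21779.5 UMIs in the tumour cells, 13097 in the primary fibroblast-like cells and 11029 in the Spp1-low cells. Doublets, droplets with more than 1 cell, were left in. A caller set to a fixed share marked 25 of the 214 cells (11.7%), 420 of the tumour cells (12.6%) and 12 of the primary fibroblast-like cells (7.59%). It also marked 17 of the 108 Spp1-low cells (15.7%). Primary tumour cells, named in some comparisons, were the 838 barcodes of the primary library that met the tumour cell limits, and 123 of them (14.7%) were marked. The libraries had 52 barcodes in common, 1 of them among the 214 cells.

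The genes that define the cells set them apart from both neighbours. Col1a1 (chromosome 11, 94936224 to 94953042 on mm10, GENCODE vM21) stood at 2018 CPM (1975 to 2061) in the collagen-rich Spp1 cells, 7.79 in tumour cells, 2887 in primary fibroblast-like cells and 2451 in Spp1-low cells. Spp1 (chromosome 5, 104435118 to 104441050) stood at 4119 CPM (4058 to 4180.4), against 168, 77.3 and 82.1. These values follow from the rule and are given as a description. Within the 214 cells collagen ran from 20 to 435 UMIs with a median of 61, and Spp1 from 5 to 608 with a median of 42.5. Close to the limits lay 18 cells with 20 to 24 collagen UMIs and 22 cells with 5 to 7 Spp1 UMIs.

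**Figure D1:**
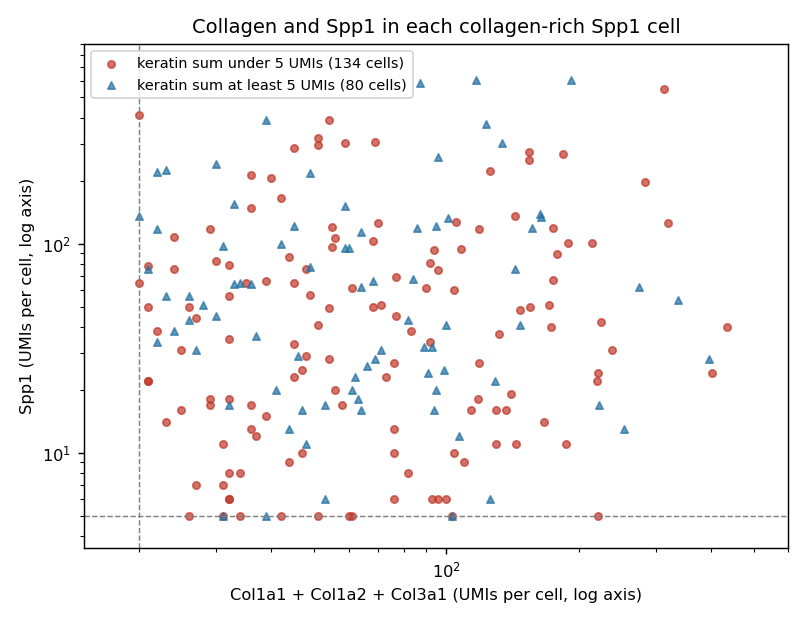
Each point is 1 of the 214 collagen-rich Spp1 cells; the axes (both logarithmic) give its UMIs of the 3 rule collagens and of Spp1, the dashed lines the limits of 20 and 5 UMIs, and triangles the 80 cells with at least 5 keratin UMIs. The keratin-bearing cells reach from 20 to 396 collagen UMIs and from 5 to 608 Spp1 UMIs.

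The other 3 marker genes were not part of the rule. Ndufa4l2 (chromosome 10, 127514967 to 127517154) stood at 699 CPM (674 to 724), 62.6 in tumour cells, 68.0 in primary fibroblast-like cells and 357 in Spp1-low cells. It was found in 80.8% of the collagen-rich Spp1 cells, and per 10000 UMIs of a cell it ran from 0 through a median of 6.16 to 31.3. The Spp1-low cells thus lay between the collagen-rich Spp1 cells and the other groups. Ero1a (chromosome 14, 45283087 to 45318771) was highest here too at 636 CPM, followed by 318 in Spp1-low cells, 271 in tumour cells and 19.8 in primary fibroblast-like cells. Its log2 ratio over tumour cells, 1.22 in all 214 cells, was 0.60 in the 127 cells with at least 50 collagen UMIs. Inhba (chromosome 13, 16011851 to 16031621) was instead highest in the Spp1-low cells at 185 CPM, followed by 98.4 (89.2 to 108) here, 26.3 in primary fibroblast-like cells and 18.2 in tumour cells.

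Shares of cells were compared at equal depth. After each cell was thinned to 2000 UMIs, 56.1% of the collagen-rich Spp1 cells still had a UMI of Ndufa4l2, against 7.74% of tumour cells and 5.10% of primary fibroblast-like cells. Chemoresistant B cells, which should lack the gene, had 2.59% (median depth 1978 UMIs before thinning, with only the 811 deeper barcodes used). These B cell barcodes had no limit on collagen, Spp1, keratin or C1q, and 222 of all 1645 were called doublets and left in. Their shares can thus hold RNA of doublets besides free RNA. For Ero1a the thinned shares were 46.3%, 19.6%, 4.46% and 7.52%, and for Spp1, a rule gene, 92.5%, 13.5%, 3.18% and 11.2%. Beside these shares the unthinned ones of the collagen-rich Spp1 cells were 80.8% for Ndufa4l2 and 75.7% for Ero1a.

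Cells lay on both sides of the collagen and Spp1 limits of the rule. The 18 members with 20 to 24 collagen UMIs had Ndufa4l2 at 823 CPM and Ero1a at 1307, and the 17 cells just outside, with 15 to 19 collagen UMIs and at least 5 of Spp1, had 728 and 980.4. A further 72 cells with 5 to 14 collagen UMIs had 800.0 and 1272. On the Spp1 side the 22 members with 5 to 7 Spp1 UMIs had Ndufa4l2 at 715 CPM and Ero1a at 199.8, and the 31 cells with 2 to 4 had 217 and 119. The Ndufa4l2 and Ero1a levels therefore continue below the collagen limit and are lower in the 31 cells just below the Spp1 limit. For Ero1a this does not extend to all Spp1-low cells. The level of the 22 members nearest the limit lay below those of all Spp1-low cells and of tumour cells given above.

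The label under which these cells were selected calls them stromal-like, and their markers bear on that name in both directions. Of the 15 fibroblast markers, 6 reached the minimum level against tumour cells, 4 of them at least 2-fold higher and none lower (median log2 ratio 2.18, or 0.31 with no minimum level). Across all 9243 genes compared with tumour cells, 733 (7.93%) were at least 2-fold higher and 831 (8.99%) at least 2-fold lower (16.9% either way), with a median log2 ratio of -0.13. Lum, a small proteoglycan of collagen fibrils, stood at 231 CPM against 2.45 in tumour cells, and the growth factor receptors Pdgfra and Pdgfrb at 55.1 and 31.1 against 5.84 and 0.349. Against primary fibroblast-like cells, all 14 fibroblast markers that reached the minimum were at least 2-fold lower, with a median of -3.56. In that comparison, 677 of 9954 genes (6.8%) were at least 2-fold higher and 1875 (18.8%) at least 2-fold lower (25.6% either way), with a median of -0.27; centred on that median the counts were 1134 and 1363.

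Several fibroblast markers were close to 0. Dpt stood at 0.235 CPM against 345 in primary fibroblast-like cells, Clec3b at 0.235 against 378, Pi16 at 0.235 against 83.0, Col14a1 at 0.941 against 361, and Tcf21 and Lrrc15 at 0. Chemoresistant tumour cells were near 0 as well, with Dpt at 0.214 CPM and Clec3b at 0.236. Dpt, Col14a1, Pi16, Clec3b, Mfap5, Fbln1, Tcf21 and Thy1 were then counted together; these 8 were picked after their values were seen, for low levels here and in tumour cells and high levels in primary fibroblast-like cells, so those 3 counts follow from the choice. At least 2 of their UMIs were present in 2 of 214 collagen-rich Spp1 cells (0.935%, 0.113 to 3.34%), 13 of 3330 tumour cells (0.390%) and 149 of 158 primary fibroblast-like cells (94.3%). In the Spp1-low cells, which the choice did not use, the count was 17 of 108 (15.7%), and Xist, the RNA of the silenced X chromosome, stood at 534 CPM in those 17 cells and 228 in the 77 with none. Dcn, the most abundant gene of the list, stood at 1025 CPM (995 to 1056) here, 531 in tumour cells, 1676 in Spp1-low cells and 6808 in primary fibroblast-like cells. The list was thus near 0 for some markers and present for others, and the cells are called here by their genes only.

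**Figure D2:**
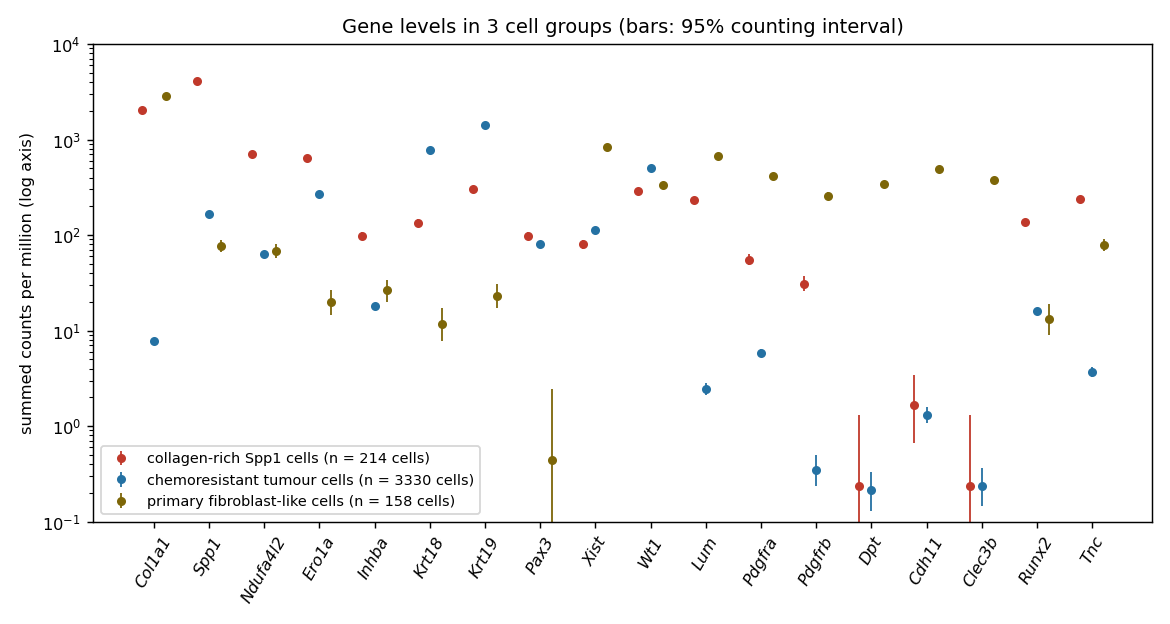
Summed CPM (logarithmic axis) of 18 genes in the collagen-rich Spp1 cells, the chemoresistant tumour cells and the primary fibroblast-like cells; points are the level of a group, bars its 95% counting interval, and values under 0.1 CPM are drawn at the lower edge. Dpt, Cdh11 and Clec3b lie within the low range of the tumour cells, while Lum, Pdgfra, Runx2 and Tnc lie above it.

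Markers of the other cell types that the sample could hold were compared in the same way. The epithelial keratins Krt8, Krt18 and Krt19 stood at 211, 134 and 304 CPM, below the 455, 779 and 1409.8 of tumour cells, which were chosen by these genes, and above the 17.1, 11.9 and 23.3 of primary fibroblast-like cells, which were limited on them. At 2000 UMIs a cell, 22.0% of the collagen-rich Spp1 cells had Krt8, 10.7% Krt18 and 14.5% Krt19, where chemoresistant B cells had 10.2%, 12.8% and 23.2%. Those B cell barcodes were not limited on keratin, and without called doublets their shares were 9.41%, 9.41% and 19.3%. The Krt8 share lay above both B cell values, the Krt18 share between them and the Krt19 share below both. All 8 tumour epithelial genes that reached the minimum were at least 2-fold lower than in tumour cells (median -2.32, or -0.90 with no minimum level), with Epcam at 1.18 CPM against 25.3 and Muc16 at 2.82 against 67.2, and the 16 genes summed to 679.8 CPM against 2926. The 8 include Krt8, Krt18 and Krt19, which chose the tumour cells and make up most of both sums. That part of the result follows from the rule.

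ID8 cells carry genes of the mesothelium, the lining of the peritoneum. Of the 10 mesothelial genes, 8 were at least 2-fold lower than in tumour cells and none higher (median -2.56), with Upk3b at 28.2 CPM against 380.1 and Gpm6a at 12.2 against 192. The other 2 were Aldh1a2 and Wt1, and Wt1, a transcription factor of mesothelium and ovarian surface epithelium, stood at 291 CPM against 508 in tumour cells and 334 in primary fibroblast-like cells.

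Leukocyte markers, which the rule capped through Ptprc and the C1q genes, and endothelial and fat cell markers were low. The 8 endothelial genes summed to 5.88 CPM (3 at 0), the 4 T cell genes to 4.24 and the 4 adipocyte genes to 1.88 (3 at 0). The 4 B cell genes summed to 12.9 CPM, the 4 neutrophil genes to 57.2 and the 7 pericyte genes to 54.4. The 8 macrophage genes summed to 622 CPM against 451 in tumour cells, and 448 of the sum came from Fcer1g, a signalling chain of Fc receptors (79.3 in tumour cells), while Adgre1 stood at 1.65 and Csf1r at 12. Haemoglobin and other red cell transcripts reached 383 CPM, below the 618 of tumour cells. What free RNA adds to these levels was not tested.

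4 genes with a high ratio over primary fibroblast-like cells, picked from a longer set, are given with their levels in both tumour groups. Pax3, a developmental transcription factor, stood at 98.8 CPM (89.6 to 109), 81.1 in chemoresistant tumour cells, 86.9 in primary tumour cells and 0.439 in primary fibroblast-like cells. In the same order of groups Kctd14 stood at 259, 659, 739 and 6.15 CPM, and Avpi1 at 424, 582, 181 and 23.3. Sox9, a regulator of cartilage and of many progenitor cells, stood at 119, 145, 256 and 8.34. That the primary fibroblast-like cells had less of these genes than the collagen-rich Spp1 cells follows from the choice. Sox9 was not among the 12 largest such ratios. Ero1a, Car12 and Vegfa were, and they stood lower in chemoresistant tumour cells than in the collagen-rich Spp1 cells. The tumour levels of the 4 genes therefore do not stand for the longer set. The library of origin and the kind of cell differ together in the comparison with primary fibroblast-like cells and cannot be told apart there.

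Xist, the RNA that silences an X chromosome in female cells, and Meg3, an imprinted non-coding RNA, were looked at after their values were seen. Xist (X chromosome, 103460366 to 103483254) stood at 80.0 CPM (71.7 to 89.0) in the collagen-rich Spp1 cells, 113 in chemoresistant tumour cells, 254 in primary tumour cells, 325 in Spp1-low cells and 837 in primary fibroblast-like cells. Chemoresistant and primary B cells stood at 606 and 855 CPM. At 2000 UMIs a cell, 14.5% of the collagen-rich Spp1 cells and 15.9% of tumour cells had a UMI of Xist, against 71.3% of primary fibroblast-like cells and 71.0% of chemoresistant B cells (75.8% without called doublets). Meg3 stood at 4.47 CPM, 0.371 in tumour cells, 101 in Spp1-low cells and 326 in primary fibroblast-like cells. For both RNAs the collagen-rich Spp1 cells lay on the side of the tumour cells.

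Over whole profiles the nearest group was the Spp1-low cells. Pearson's r of log2 levels was taken across 11858 genes, leaving out the rule collagens, Spp1 and the keratins but not Ptprc and the C1q genes. It was 0.956 with the Spp1-low cells, 0.898 with chemoresistant tumour cells, 0.822 with primary tumour cells, 0.804 with chemoresistant B cells, 0.802 with primary fibroblast-like cells and 0.681 with primary B cells. These are correlations across genes, which are not independent replicates, and groups of 1 library share its free RNA. The Spp1-low cells also met the same collagen, Ptprc and C1q limits, so their place as the nearest group rests in part on the rule. The share of those genes past 2-fold was 5.44%, 13.8%, 20.2%, 22.0%, 22.0% and 33.0% in the same order. Against the Spp1-low cells, 72 of 9051 genes (0.795%) were at least 2-fold higher and 488 (5.39%) at least 2-fold lower (6.19% either way). Among the lower ones were fibroblast markers (6 of 12) and mesothelial genes (9 of 10), and the acute phase gene Saa3 stood at 60.2 CPM against 2801.

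The genes of each chromosome were also summarised by their median log2 ratio, centred on the median of all of them, for 10390 genes on 20 chromosomes. Over primary fibroblast-like cells, the collagen-rich Spp1 cells had their highest medians on chromosomes 19 (0.43), 15 (0.36) and 11 (0.22) and their lowest on chromosomes 14 (-0.28), 12 (-0.27) and 9 (-0.27). The chemoresistant tumour cells had 0.72, 0.54 and 0.35 on the first 3 and -0.22, -0.41 and -0.27 on the last 3, and primary tumour cells 0.52, 0.50 and 0.37 and -0.12, -0.35 and -0.35. These ratios share the primary fibroblast-like cells as their denominator, so likeness between them is given side by side with no measure. The standard deviation over chromosomes was 0.20 for the collagen-rich Spp1 cells, 0.283 for chemoresistant tumour cells and 0.251 for primary tumour cells. Directly against chemoresistant tumour cells it was 0.160, with chromosome 8 highest (0.34) and chromosome 19 lowest (-0.27). Whether such medians follow DNA copy number was not tested.

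**Figure D3:**
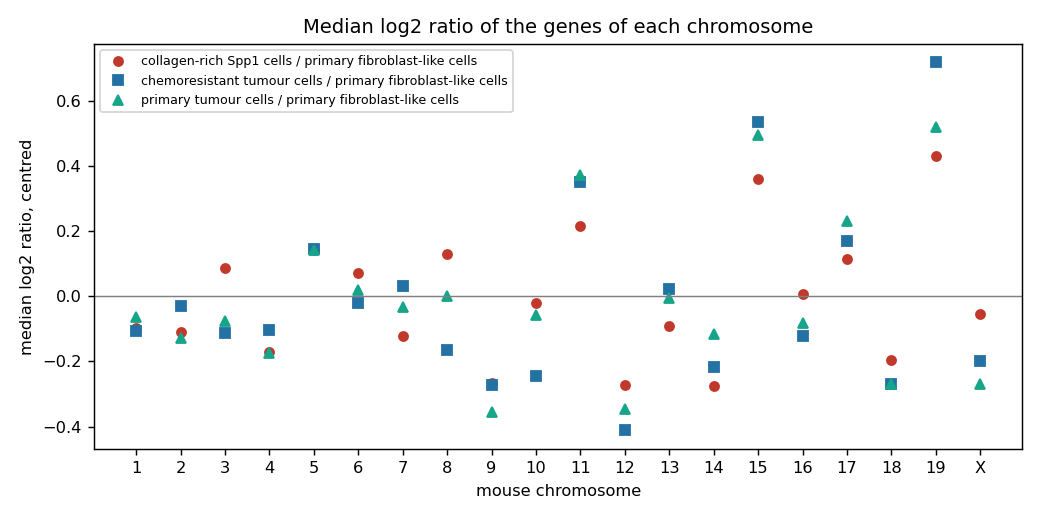
Median log2 ratio of the genes on each mouse chromosome over the primary fibroblast-like cells, centred, for the collagen-rich Spp1 cells (circles), chemoresistant tumour cells (squares) and primary tumour cells (triangles). All 3 lie highest on chromosomes 15 and 19, and the collagen-rich Spp1 cells lie nearer to 0 there than both tumour groups.

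The collagen programme went beyond the 3 rule genes. Of 17 other collagen genes, 13 reached the minimum against tumour cells, 10 were at least 2-fold higher and none lower (median 2.37). Col8a1 stood at 213 CPM against 1.89, Col6a3 at 186 against 2.20 and Col12a1, which decorates the surface of fibrils, at 272 against 9.13. Compared with primary fibroblast-like cells 13 of 15 were at least 2-fold lower (median -1.87), among them the basement membrane chain Col15a1 at 6.59 against 219. Col8a1 (212 in primary fibroblast-like cells) and Col12a1 (191) were the 2 measured collagens that were not.

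The enzymes that process collagen differed less. Against tumour cells 14 of 23 were at least 2-fold higher and none lower (median 1.25), including the lysyl oxidases Loxl3 (52.9 CPM against 2.63) and Lox (154 against 21.9) and the collagen chaperone Serpinh1 (434 against 123). Relative to primary fibroblast-like cells 3 were at least 2-fold higher and 6 lower of 23 (median -0.44). The 3 higher ones, P4ha1 (206 against 93.9), P4ha2 (106 against 31.6) and P4hb (781 against 339), are subunits of the prolyl 4-hydroxylases.

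Other matrix genes and proteases followed the collagens. Of 20 matrix genes 14 were at least 2-fold higher than in tumour cells and 1 lower (median 1.77). Tnc, a matrix protein of healing wounds and tumours, stood at 236 CPM against 3.69 in tumour cells and 79.5 in primary fibroblast-like cells, where it was the 1 matrix gene of 24 at least 2-fold higher and 13 were lower. Elastin (Eln) was low at 9.18 CPM against 57.9 and 405. Among proteases and their inhibitors, 15 of 17 were at least 2-fold higher than in tumour cells and 1 lower (median 1.77), with Mmp19 at 61.9 CPM against 4.56. In the comparison with primary fibroblast-like cells 16 of 21 were at least 2-fold lower, led by Mmp3 at 0.706 CPM against 559, and 2 higher, Mmp9 and Mmp10.

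Contractile genes were higher than in tumour cells for 7 of 8 (at least 2-fold, median 2.32), with Tagln at 333 CPM against 7.64 and smooth muscle actin, Acta2, at 235 against 7.96. In primary fibroblast-like cells Tagln stood at 836 and Acta2 at 529, and 6 of 10 contractile genes were at least 2-fold lower here and 1, Myl9, higher (median -1.15, and -0.29 when cells were thinned to 2000 UMIs). Among regulators of the mesenchymal state 7 of 9 were at least 2-fold higher than in tumour cells (median 1.71), including Prrx1 (89.4 against 4.17) and Snai1 (49.2 against 1.35). Twist1, also a fibroblast regulator, stood at 1.65 CPM and the cadherin Cdh11 at 1.65, against 58.4 and 492 in primary fibroblast-like cells.

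Genes of bone and cartilage were partly present. Runx2, the leading transcription factor of bone formation, which also controls Spp1 in bone cells, stood at 136 CPM (126 to 148) against 16 in tumour cells, 13.2 in primary fibroblast-like cells and 90.6 in Spp1-low cells. Before thinning it was found in 71.5% of the 214 cells. Of the 12 bone and cartilage genes, 4 reached the minimum against tumour cells, 3 of them at least 2-fold higher and none lower. Sox9, given above, had the lowest ratio of the 4 and stood below tumour cells. The cartilage proteoglycan Acan stood at 15.3 CPM against 0.0338 in tumour cells. Sp7 at 1.18 CPM and Dmp1 at 0.235 were near 0, and the mature bone genes Bglap and Ibsp were at 0.

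Summed over all 214 cells, the hypoxia genes differed from both neighbours in the same direction. A subcluster of 45 cells, described below, had a hypoxia list sum under that of tumour cells. Of 28 genes, 24 reached the minimum against tumour cells and 13 were at least 2-fold higher, none lower (median 1.09). That median lay under 2-fold in 5 of 11 other settings: 0.997 by mean per-cell CPM, 0.98 with no minimum level, 0.91 in thinned cells, 0.97 in members under 5 keratin UMIs and 0.71 in the 127 cells with at least 50 collagen UMIs. Against primary fibroblast-like cells 19 of 26 were at least 2-fold higher and 2 lower (median 2.37). Hilpda, a lipid droplet protein, stood at 367 CPM, 70.2 in tumour cells and 42.6 in primary fibroblast-like cells, and Vegfa, the main angiogenic factor, at 439, 147 and 27.2. The carbonic anhydrases Car12 and Car9 stood at 72.9 and 36.0 CPM here, at 11.6 and 11.3 in tumour cells, and had no UMI in the primary fibroblast-like cells. Adm and Angptl4, which also belong to the list, were the 2 lower ones, at 1.41 and 101 CPM against 265 and 236 in primary fibroblast-like cells. The Spp1-low cells differed by a median of 0.43, with 2 of 25 genes at least 2-fold lower in them (Ankrd37 and Hilpda) and 1 higher (Adm).

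Glycolysis genes were measured for all 17 members of the list. 5 were at least 2-fold higher than in tumour cells and none lower (median 0.60), and 13 at least 2-fold higher than in primary fibroblast-like cells (median 1.87). Pgk1 stood at 1139.8 CPM, 605 in tumour cells and 79.9 in primary fibroblast-like cells, and hexokinase 2 (Hk2) at 296, 74.4 and 172. The 32 genes of the respiratory chain had none past 2-fold against tumour cells (median -0.28) and 6 higher against primary fibroblast-like cells (median 0.61).

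Because the hypoxia genes stood higher together, their promoters were searched for the core of the hypoxia response element. RefSeq promoters of GRCm38.p6 gave the 250 bases before a gene's start for 22 of the 28 genes, by symbol. The letters sought were ACGTG and GCGTG on both strands, that is also CACGT and CACGC, which may overlap. At least 1 match was present in 17 of 22 hypoxia promoters (77.3%), 11 of 16 glycolysis promoters (68.8%), 12 of 17 collagen processing promoters (70.6%) and 6 of 15 promoters of the other collagens (40.0%), against 10431 of 27025 in the whole table (38.6%). GC content was not matched between these sets. 3 promoters are shown for what differs between them: Ankrd37 (102 CPM against 29.7 in tumour cells) holds 4 matches, in capitals, while Hilpda and Spp1 hold none in this window. Ankrd37 lies at chr8:45999851-46000100 on the minus strand, Hilpda at chr6:29272238-29272487 on the plus strand and Spp1 at chr5:104434861-104435110 on the plus strand.
Ankrd37: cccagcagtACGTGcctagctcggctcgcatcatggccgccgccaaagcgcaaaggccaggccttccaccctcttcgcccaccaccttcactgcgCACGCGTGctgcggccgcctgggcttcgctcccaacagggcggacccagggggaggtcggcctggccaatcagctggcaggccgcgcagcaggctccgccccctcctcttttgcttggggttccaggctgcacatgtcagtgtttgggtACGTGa
Hilpda: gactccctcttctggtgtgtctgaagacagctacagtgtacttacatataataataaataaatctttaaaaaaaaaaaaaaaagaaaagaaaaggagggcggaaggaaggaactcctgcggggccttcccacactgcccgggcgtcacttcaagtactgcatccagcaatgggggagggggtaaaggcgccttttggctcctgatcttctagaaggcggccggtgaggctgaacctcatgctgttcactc
Spp1: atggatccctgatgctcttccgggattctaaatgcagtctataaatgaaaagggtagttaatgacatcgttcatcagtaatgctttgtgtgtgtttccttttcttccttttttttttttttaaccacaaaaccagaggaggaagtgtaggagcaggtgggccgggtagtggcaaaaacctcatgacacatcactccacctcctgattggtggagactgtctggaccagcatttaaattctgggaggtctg
A match is a description of letters, and both Ankrd37 and Hilpda stood at least 3-fold higher than in tumour cells on the ratio of CPM + 5 (3.09-fold and 4.94-fold).

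Genes of the unfolded protein response and of the amino acid response driven by Atf4 were also higher, 9 of 21 at least 2-fold above tumour cells and 1 below (median 0.96). The mitochondrial folate enzyme Mthfd2 stood at 66.1 CPM against 17.6, and the stress factor Ddit3 at 209 against 77.0. Against primary fibroblast-like cells 9 of 22 were at least 2-fold higher and none lower (median 0.76). Of 20 genes of the antioxidant factor Nrf2 and the metallothioneins, 5 were higher and 2 lower than in tumour cells (median 0.04). Haem oxygenase (Hmox1) stood at 710.1 CPM, 143 in tumour cells and 116 in primary fibroblast-like cells, and the glutathione transferase Gstm1 at 249, 1175 and 283. 11 of these genes were at least 2-fold higher than in primary fibroblast-like cells and 1 lower.

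Signals and their receptors were mixed. In the TGF-beta and activin list 10 of 25 were at least 2-fold higher than in tumour cells and none lower (median 0.71), while 1 was higher and 9 lower than in primary fibroblast-like cells. Besides Inhba, the antagonists Grem1 and Fst stood at 60.9 and 39.8 CPM against 4.26 and 2.87 in tumour cells. Of the osteopontin receptors 3 of 7 were at least 2-fold higher than in tumour cells (median 0.73): Itga5 at 214 CPM against 25.1, Cd44 at 237 against 78.2 and Itgb1 at 418 against 182. Itgav, the chain most often named as its receptor, stood at 123 CPM against 142.

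Among cytokines 6 of 13 were at least 2-fold higher than in tumour cells and 3 lower. The alarmin Il33 stood at 320.2 CPM against 12.5 in tumour cells and 83.0 in primary fibroblast-like cells, and the neutrophil attractant Cxcl5 at 87.3, 0.867 and 16.2. 11 of 15 were at least 2-fold lower than in primary fibroblast-like cells and 2 higher (median -2.30). Saa3 stood at 60.2 CPM against 3185 there, and the eosinophil attractant Ccl11 at 0 against 234. For growth factors and their binding proteins 6 were higher and 3 lower of 17 against tumour cells, led by Igfbp7 (1496 CPM against 150.3) and Pgf (84.0 against 6.90), and 5 and 7 of 21 against primary fibroblast-like cells.

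Antigen presentation by class II stood lower than in tumour cells for all 7 measured genes (at least 2-fold, median -3.01). The invariant chain Cd74 stood at 116 CPM against 1651 and H2-Aa at 71.8 against 873, and the 7 genes summed to 317 CPM, 3722 in tumour cells and 579 in primary fibroblast-like cells. Chemoresistant B cells, which express class II, are in the same library at 9605 CPM. The tumour cells had no C1q limit and held up to 308 C1q UMIs, against at most 3 in the collagen-rich Spp1 cells. Barcodes with macrophage RNA were thus left out on 1 side only, and their part in the class II levels was not tested. Class I genes had 2 of 9 at least 2-fold lower than in tumour cells (median -0.71), H2-K1 at 293 CPM against 879.6 and H2-D1 at 206 against 491. The interferon list was mixed, with 1 higher and 2 lower of 14 (median -0.12).

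Cell cycle genes differed little in number from tumour cells. In the G2 and M phase list 1 of 18 and in the S phase list 1 of 16 were at least 2-fold higher, none lower (medians 0.67 and 0.45), against 9 and 3 in the comparison with primary fibroblast-like cells. The G2 and M list summed to 863 CPM, against 464 in tumour cells. Among the subclusters described below, it summed to 4056 CPM in subcluster 3 (26 cells). In each of the others it summed to between 154 and 371 CPM, below tumour cells. Of 18 targets of p53, the responder to DNA damage, none was higher and 2 were lower (median -0.49), with Cdkn1a at 235 CPM against 202. The immediate early genes, which respond to growth signals and also to tissue dissociation, were at least 2-fold higher for 15 of 19 (median 1.98), with Egr2 at 80.9 CPM against 9.48 and Nr4a1 at 308 against 47.9. Against primary fibroblast-like cells the same list had 1 higher and 3 lower (median -0.19). The part of dissociation in these levels was not tested.

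**Figure D4:**
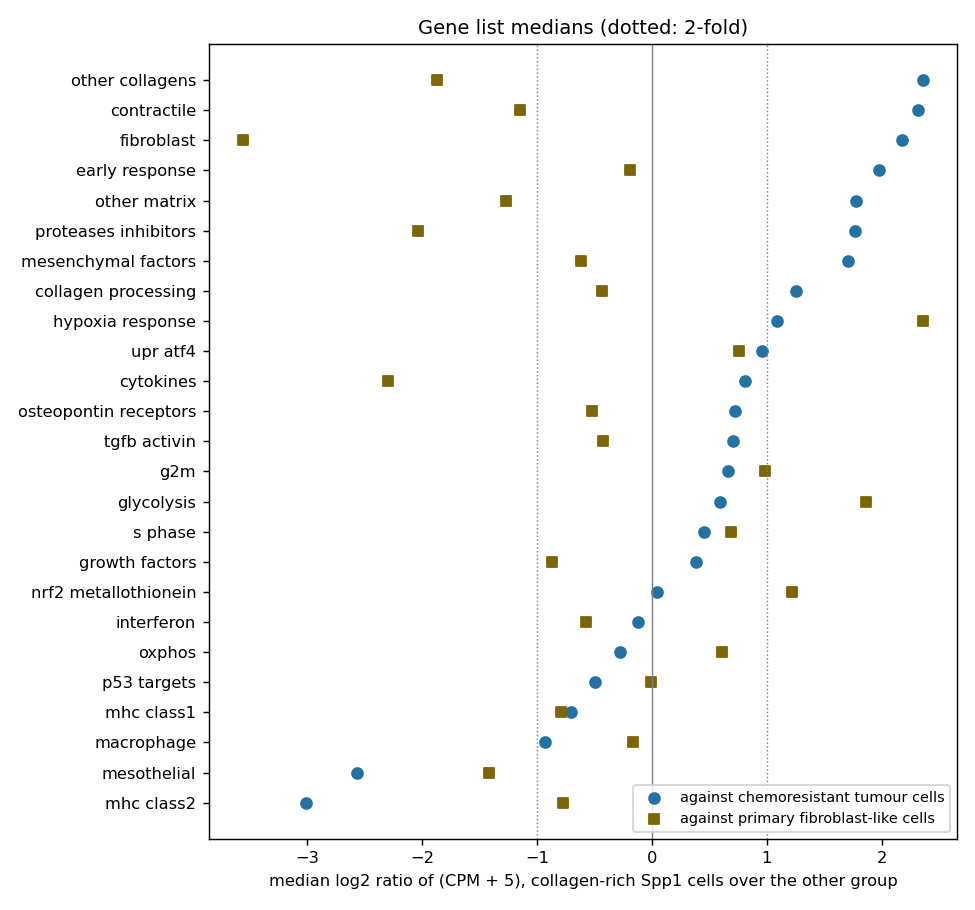
Median log2 ratio of (CPM + 5) of each gene list with at least 5 measured genes in both comparisons, for the collagen-rich Spp1 cells against chemoresistant tumour cells (circles) and against primary fibroblast-like cells (squares); dotted lines mark 2-fold. Matrix and fibroblast lists lie above 0 in the first comparison and below 0 in the second, while the hypoxia list lies above 0 in both, close to the 2-fold line in the first.

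Outside the lists, the genes with the largest ratios over tumour cells included the heparin-binding growth factor Ptn (187 CPM against 1.44), Cthrc1 (168 against 2.49), a secreted protein of collagen-forming tissue, and Rhoj (137 against 1.58), a small GTPase. The largest in the other direction were the potassium channel Kcnd2 (28.5 CPM against 897), Ctnna2 (4.71 against 169), Fxyd3 (24.2 against 461) and Lgals2 (34.8 against 541). Pkhd1l1, Tm4sf5, Kcnab1 and Samd12 completed that set with log2 ratios of -3.77, -3.57, -3.51 and -3.46.

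Over primary fibroblast-like cells the 12 largest ratios held, besides Spp1, Ero1a, Kctd14, Pax3, Avpi1, Car12 and Vegfa, those of Igfbp2 (305 CPM against 10.1), which binds insulin-like growth factors, Tnfrsf9 (131 against 2.19), a receptor best known on T cells, Cda (121 against 3.07), a cytidine deaminase of pyrimidine salvage, and Rgcc (299 against 16.7). Fam162a, a hypoxia gene, stood at 1170.1 against 81.2. Among the 12 largest lower ratios were those of the fatty acid carrier Fabp4 (1.88 against 1130.0), Svep1 (0.235 against 682), the glutathione peroxidase Gpx3 (3.29 against 936) and Gpc6 (0.235 against 497). Mmp3, Cdh11 and Clec3b belonged to them too, and Sntg1, Prkg1, Rgs5, Cpxm1 and Mfap5 had log2 ratios of -6.52, -6.35, -6.32, -6.27 and -6.22.

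The 214 cells were not uniform. Clustering them alone gave 6 subclusters at the resolution used, 3 at a lower and 7 at a higher one, so the number is a setting and the genes that defined the subclusters are a description. Subcluster 0 (64 cells) was led by secreted defence and immune genes, with Slpi at 111 CPM against 5.92 in the other collagen-rich Spp1 cells, Cxcl5 at 249.7 against 34.6, and Lcn2, Hp and C3. It also held the highest fibroblast list sum, 2483 CPM over 15 genes. Subcluster 1 (48 cells) was led by endoplasmic reticulum stress genes, Ddit3 at 652 CPM against 85.3 and the chaperone Hspa5 at 2752 against 519, with Ero1a at 1587 against 370.0 and the interferon genes Ifit1 and Isg15. Its hypoxia list summed to 13842 CPM and its glycolysis list to 20129.7, both highest among the 6.

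Subcluster 2 (45 cells) was the opposite end of that range. Its hypoxia list summed to 2882 CPM and its glycolysis list to 4376, below the 3693 and 8255 of tumour cells. In this subcluster Ndufa4l2 stood at 124 CPM and Ero1a at 61.4, while the calcification inhibitor Mgp stood at 1714 CPM against 225 and Acta2 at 639. Its Runx2 level, 246 CPM, was the highest of the 6. Subcluster 3 (26 cells) was led by mitotic genes, Birc5 at 565 CPM against 21.1 and Top2a at 484 against 15.8, together with the heat shock gene Hspa1a at 853 against 13.8. Its tumour epithelial list summed to 1452 CPM, against 201 to 278 in subclusters 0, 1, 2 and 4, Krt19 stood at 715, and 7 of its 26 cells were called doublets; the part of doublets in its profile was not tested. Subcluster 4 (18 cells) was led by Igfbp5 at 492 CPM against 32.4, Rhoj and Ptn, carried the cytokine gene Il10 at 609 against 115, and had the highest Ndufa4l2 at 1408.

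Subcluster 5 (13 cells) was led by tumour genes such as Krt19 (1173 CPM against 179.9) and Kcnd2 (151 against 11). Its median depth was 42496 UMIs, its median keratin sum 86 UMIs, and 9 of its 13 cells were called doublets, against 0 to 7 calls in each of the others. Xist ranged from 33.0 to 120.0 CPM over the 6 subclusters, all below the 837 of primary fibroblast-like cells. A low Xist level was thus common to all 6 subclusters.

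**Figure D5:**
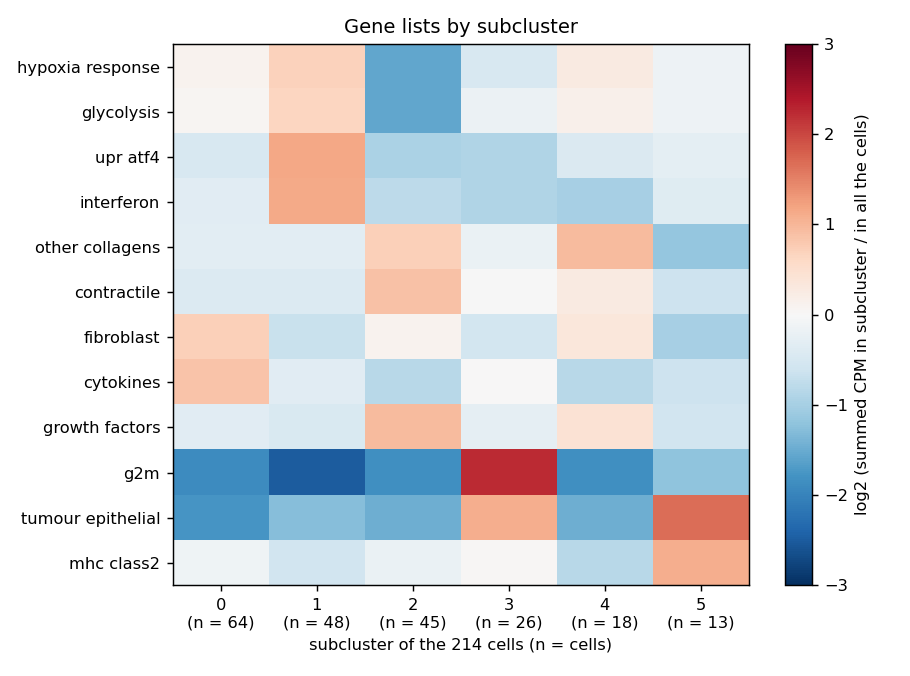
Log2 of the summed CPM of 12 gene lists in each of the 6 subclusters over their sum in all 214 collagen-rich Spp1 cells (colour scale; n gives cells). Subcluster 1 has the highest hypoxia, glycolysis and stress values, subcluster 2 the lowest hypoxia and glycolysis values, subcluster 3 the highest mitotic list and subcluster 5 the highest tumour epithelial list.

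Across the 214 cells at 2000 UMIs each, the hypoxia and glycolysis lists varied together (Spearman's rho 0.85), and the hypoxia list with the Nrf2 list (0.50) and the stress list (0.47). The rule collagens varied with the other matrix genes (0.51), and both varied against depth (-0.51 and -0.43). Since the rule asks for a fixed number of collagen UMIs, a shallow cell enters only with a high share of collagen, so the correlations with rule collagens or Spp1 rest in part on the rule. The hypoxia list varied against the rule collagens (-0.31) and the growth factor list (-0.44), and little with Spp1 (0.19). Cells of 1 library share its depth and free RNA, so these values describe the cells and carry no p.

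Keratin divided the cells by depth as well. 80 cells had at least 5 keratin UMIs (median 24814 UMIs in all), 61 had at most 1 (median 9849), 73 lay between, and 50 had 3 to 6, near the limit. After thinning to 2000 UMIs, 209 of 3996 genes with at least 50 CPM were at least 2-fold higher in the keratin-bearing cells and 402 in the keratin-poor ones. The small heat shock gene Cryab stood at 769 CPM in the keratin-bearing and 98.4 in the keratin-poor cells, and Hspb1 at 1425 and 402. Before thinning, Hspb1 stood at 3845 CPM in subcluster 3 against 376 in the other collagen-rich Spp1 cells. In that subcluster 7 of 26 cells were called doublets, and the part of doublets in the keratin split was not tested. Mgp stood at 169 and 1230, Col4a1 at 156 and 656, and Tnc at 144 and 557, all higher in the keratin-poor cells. The fixed collagen limit admits shallow cells only with a high share of collagen, and the rule gene Col1a1 stood at 1713 and 4197. Thinning does not undo that selection, and its part in these matrix differences was not tested. The hypoxia list summed to 8938 and 7385 CPM, so the hypoxia genes were present with and without keratin.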

How the data were processed

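The deposited matrices hold raw UMI counts per gene and barcode, which the authors made with Cell Ranger 8.0.1 on mm10, per the submitters' processing notes, with no annotation version given in the sources used here. Reads came from 10x 3' v3 libraries of pooled tumours, per the labels' protocols, with 141334623 UMIs in the primary and 158118781 in the chemoresistant matrix (14390 and 16390 barcodes). Barcodes with at least 250 genes and at most 20% mitochondrial UMIs were kept.

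From the counts, sums per group, CPM, exact Poisson and Clopper-Pearson 95% intervals (scipy 1.17.1) and log2 ratios with 5 CPM added were computed, for genes with at least 10 CPM in either group. UMIs were thinned to 2000 per cell where shares were compared, leaving out shallower cells (kept were 214 of 214 collagen-rich Spp1 cells, 3280 of 3330 tumour cells, 157 of 158 primary fibroblast-like cells and 811 of 1645 chemoresistant B cells, which were barcodes with at least 5 UMIs of Cd79a and Cd79b). Subclusters came from scanpy 1.11.5 and leidenalg 0.10.2 on 1000 variable genes and 15 components at resolution 0.5. Doublets were called with Scrublet, whose automatic threshold marked 0 chemoresistant barcodes, so the share was set to 0.8% per 1000 barcodes; calls were removed only as an alternative. The ratio and thinning steps were tested on simulated data. Chromosomes came from GENCODE vM21 by gene identifier, matching 31961 genes and leaving 1735 unmatched.

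Named genes are the rule and marker genes, the 12 largest ratios each way among genes with at least 50 CPM in the higher group, the 2 highest and 2 lowest of each list, and cell type markers; others were chosen after their values were seen, and further list genes are named as examples of their roles. The members and all gene lists were chosen with earlier results of these data known. With 1 library a group, no test was run, and 2-fold marks size only.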

Additional observations from a re-analysis of the deposited data

How the results depend on the processing

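For the comparisons with tumour cells and with primary fibroblast-like cells, counts and list medians were recomputed with ratios centred on the median gene, mean per-cell CPM, 1 CPM added, no minimum level, thinned cells, called doublets left out, keratin-poor members, stricter barcode, collagen and Spp1 limits, and other limits for the comparison cells; the Spp1-low comparison and the keratin split were not recomputed. With cells thinned, the genes at least 2-fold lower than tumour cells numbered 1330 in place of 831. The genes at least 2-fold higher than in primary fibroblast-like cells numbered 1134 when centred and 1076 when thinned, in place of 677. With called doublets left out (189 collagen-rich Spp1 cells remained), 809 genes were at least 2-fold higher and 975 lower than in tumour cells, and 644 and 1913 in the other comparison; with the 134 members under 5 keratin UMIs the numbers were 923 and 1058, and 595 and 1777. With genes of at least 50 CPM, the standard deviation over chromosomes was 0.211 against tumour cells, 0.269 against primary fibroblast-like cells, and 0.395 and 0.322 for chemoresistant and primary tumour cells over the latter. For the 12 lists whose median was past 2-fold against tumour cells, the direction was the same in all 132 recomputed values and 125 stayed past 2-fold (5 of the other values are the hypoxia list); for the 11 against primary fibroblast-like cells it was the same in 121, and 111 stayed past 2-fold. Of single genes, 27 past 2-fold in each comparison were recomputed (highest-ranked, rule and marker genes, and Xist in the second comparison only). The 2-fold call was kept in 296 of 297 and 297 of 297 values. Most of these genes were picked for the largest ratios, far past 2-fold, so their calls could hardly change and do not speak for other genes. Other named genes were not recomputed. No paired analysis was possible because each group is 1 library and no test was run. 1 pooled library a group also means that differences between libraries, animals and cell states cannot be told apart, and counting intervals do not cover the spread between animals.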
